A study of Drosophila melanogaster with 6 samples.

Results

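The notum is the part of the wing imaginal disc that forms the dorsal thorax of the adult fly, and 10 genes that pattern it were examined: pnr, ush, tup, eyg, toe, Doc1, Doc2, Doc3, tsh and tio. Members were taken as all probe sets annotated to exactly 1 of these symbols, which gave 10 probe sets for 9 genes among 13966 probe sets and 10844 genes tested in all. The gene tup had 2 probe sets and each of the other 8 measured genes had 1. The gene toe had no probe set under its symbol and was not analysed here.

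RNA of Drosophila melanogaster wing discs of the third larval instar was measured on 6 Affymetrix arrays. In 3 samples, EGFR ACT (arrays ACT1 to ACT3), an activated form of the epidermal growth factor receptor, labelled TOP, was expressed. In the other 3, EGFR DN (arrays DN1 to DN3), a dominant negative form, which blocks the signal of the endogenous receptor, was expressed. The 71B-Gal4 driver was used in both groups, and no age beyond the instar is given. Neither group is a baseline, because no disc without a transgene was used here. Where in the disc the driver is active is not given in the labels, and it was not measured here whether the notum received either transgene. The labels do not say whether replicates came from separate animals, so the p-values rest on a spread between samples that may be technical only.

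The notum is divided along its medial to lateral axis by transcription factors. In the medial part, Pannier, a GATA factor, acts with its cofactor U-shaped under the control of Dpp, a BMP signal, and Tailup is a LIM-homeodomain factor of the Islet family. More laterally, Eyegone and its twin Toe are Pax proteins, and the Dorsocross proteins Doc1, Doc2 and Doc3 are T-box factors. Teashirt and its paralogue Tiptop are zinc finger factors of proximal disc regions, notum and hinge included. Signalling by the fly's Egfr through Ras and ERK is known to take part early in setting the notum apart from the wing and later in patterning the lateral notum, where the Iroquois genes respond to it. By RefSeq (assembly Release 6 plus ISO1 MT), no other gene starts between eyg and toe, which are thus neighbours, and the Doc genes lie close together. Between Doc1 and Doc2 there is 1 gene start, of a gene that does not code for protein, and between Doc2 and Doc3 there is also 1, of a protein-coding gene. By contrast, 21 genes start between tsh and tio, of which 7 are protein-coding.

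Values are log2 probe set signals, on which a step of 1 is a doubling. Every difference is EGFR ACT minus EGFR DN with the standard error (SE) of a limma fit across all probe sets, and a probe set was called at a Benjamini-Hochberg adjusted p under 0.05. Probes differ in how strongly they bind, so the level of one gene was not set against that of another. Since whole discs were measured, fewer cells of a type and less RNA per cell cannot be told apart. The 4 yeast control probe sets, whose transcripts the fly lacks, had a mean between 5.54 and 5.96 per array and gives a rough background level. All 7 measured wing disc markers, the pouch gene nub and the dorsal selector ap among them, exceeded the highest yeast control on every array. One Egfr probe set (142966_at) averaged 10.49 ± 0.29 in EGFR ACT and 8.97 ± 0.43 in EGFR DN discs (SD, n = 3 each; limma adjusted p = 0.715), and the other (151735_at) averaged 9.01 ± 0.66 in EGFR ACT and 9.60 ± 0.81 in EGFR DN discs (SD, n = 3 each; limma adjusted p = 1). Whether either probe set detects the transgenes is not known here, so they do not check the labels. The gene sty, which encodes Sprouty, a feedback inhibitor of the pathway, read 10.17, 9.90 and 9.69 in ACT1 to ACT3, against 9.16, 8.92 and 8.97 in DN1 to DN3. It was higher in EGFR ACT discs without overlap, the direction that the labels give, but was not called (log2 difference 0.90, SE 0.16; limma adjusted p = 0.995). Of the 15 pairs of arrays, the 2 with the highest Pearson's r across probe sets joined the groups, at 0.991 for ACT1 with DN1 and also 0.991 for ACT3 with DN3. Both joined arrays of the same number, and the main limma fit takes no account of the number.

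None of the notum genes was called between EGFR ACT and EGFR DN discs by limma, and 0 of the 10 probe sets had an unadjusted p under 0.05. All 10 probe sets had overlapping groups, with log2 differences from -0.25 for pnr to 0.28 for Doc1, or 0.843-fold to 1.21-fold. The smallest unadjusted limma p was 0.130, that of Doc1, and the smallest adjusted p was 1. Over all 13966 probe sets, 0% were called, 2.21% had an unadjusted p under 0.05 and 6.23% had groups without overlap, so the absence of calls is shared with the rest of the array. The 95% intervals of the 10 probe sets, taken one at a time, lay between 0.603-fold and 1.57-fold. A doubling or a halving of signal was therefore outside each of them, on the scale of these whole-disc signals. The signals of pnr and of 1 tup probe set (142284_at) lay near the yeast controls. Near background the signal may not follow the transcript, so these intervals do not bound its change there.

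**Figure D1:**
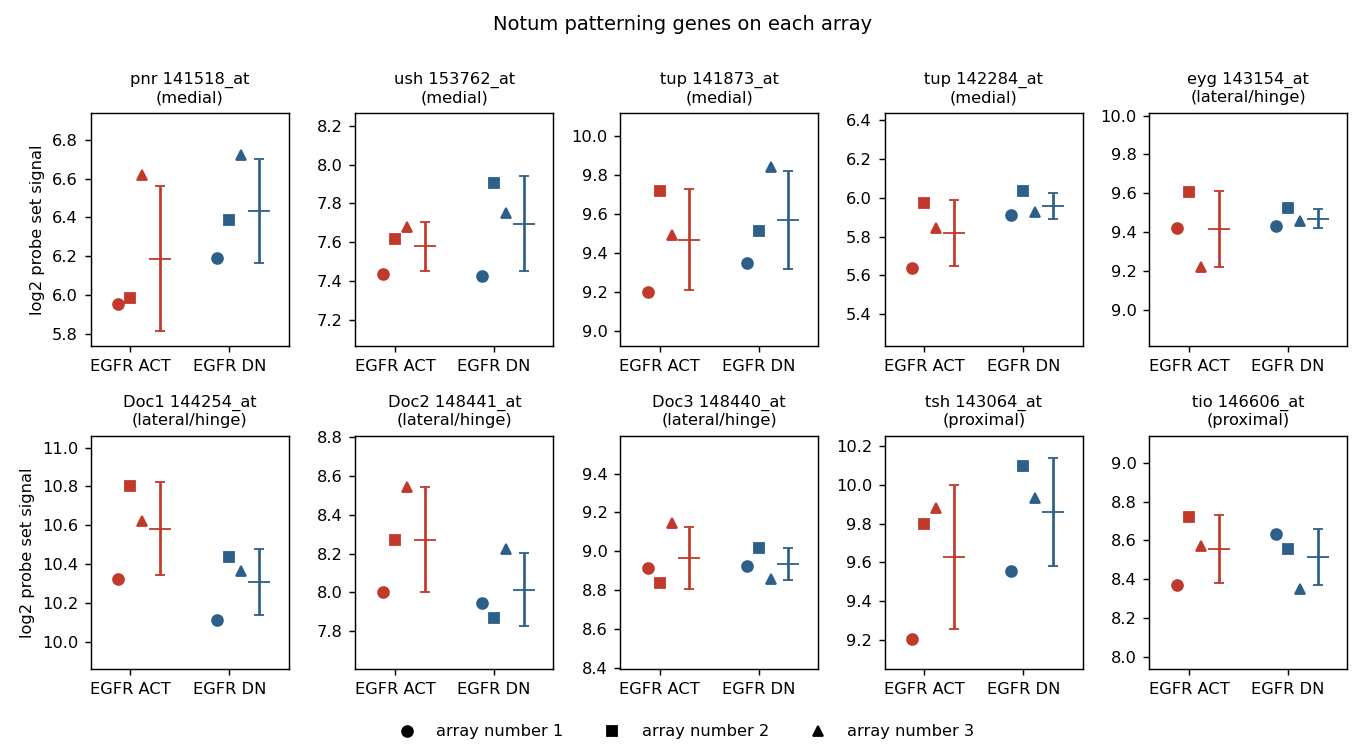
Log2 signal of each notum probe set on each array, EGFR ACT in red and EGFR DN in blue, with the symbol giving the array number of the labels and the bar the mean ± SD (n = 3 arrays). Each panel spans 1.2 log2 units around its own values; the groups overlap in all 10 panels, and ACT1 holds the lowest value of pnr, tup (both probe sets) and tsh.

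The 3 medial genes had lower mean signals in EGFR ACT discs, each by less than the spread between arrays could resolve. The gene pnr, whose product positions medial bristles and activates proneural genes, read 5.96, 5.99 and 6.62 in ACT1 to ACT3, against 6.19, 6.39 and 6.72 in DN1 to DN3. ACT3 lay above both DN1 and DN2, so the groups overlapped. Its log2 difference was -0.25 (SE 0.21, 95% interval -0.73 to 0.24; limma adjusted p = 1). The probe set is dim: it exceeded the mean yeast control on 5 of 6 arrays, ACT1 being the exception. The level of pnr was highest on both arrays numbered 3.

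U-shaped, encoded by ush, is a multi-zinc-finger cofactor that binds Pannier and limits its activity. Its signal was 7.44, 7.62 and 7.68 in ACT1 to ACT3, against 7.43, 7.91 and 7.75 in DN1 to DN3. The EGFR ACT values lay within the range of the EGFR DN values. The log2 difference was -0.12 (SE 0.16, 95% interval -0.48 to 0.25; limma adjusted p = 1).

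The gene tup was measured by 2 probe sets. Its brighter probe set (141873_at) read 9.20, 9.72 and 9.49 in ACT1 to ACT3, against 9.35, 9.51 and 9.85 in DN1 to DN3. Its lowest array was ACT1 and its highest DN3, while ACT2 exceeded DN1 and DN2. The log2 difference was -0.10 (SE 0.18, 95% interval -0.52 to 0.32; limma adjusted p = 1). It was 0.037 without DN3 and 0.035 without ACT1, so the sign of this difference rests on those arrays. The dim probe set (142284_at) read 5.64, 5.97 and 5.84 in ACT1 to ACT3, against 5.91, 6.04 and 5.93 in DN1 to DN3. It exceeded the highest yeast control on 3 of 6 arrays, and its log2 difference was -0.14 (SE 0.14; limma adjusted p = 1).

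Among the lateral and hinge-side genes, 3 of 4 had higher mean signals in EGFR ACT discs and eyg was lower by 0.05. The Pax gene eyg, known for its part in the eye and in the mid-lateral notum, read 9.42, 9.61 and 9.22 in ACT1 to ACT3, against 9.43, 9.52 and 9.46 in DN1 to DN3. Both the highest and the lowest of the 6 values came from EGFR ACT arrays. The log2 difference was -0.05 (SE 0.14, 95% interval -0.38 to 0.27; limma adjusted p = 1), and it was 0.046 without ACT3.

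The Dorsocross genes, best known for their redundant roles in the embryonic amnioserosa and heart, had differences from 0.03 for Doc3 to 0.28 for Doc1. Doc1 read 10.32, 10.80 and 10.62 in ACT1 to ACT3, against 10.11, 10.44 and 10.37 in DN1 to DN3. ACT2 and ACT3 exceeded every EGFR DN array and ACT1 did not. Its log2 difference was 0.28 (SE 0.17, 95% interval -0.10 to 0.65; limma adjusted p = 1).

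Doc2 read 8.001, 8.27 and 8.54 in ACT1 to ACT3, against 7.95, 7.87 and 8.23 in DN1 to DN3. Here too ACT2 and ACT3 lay above every EGFR DN array, and ACT1 lay below DN3. Its log2 difference was 0.26 (SE 0.18, 95% interval -0.14 to 0.65; limma adjusted p = 1). Without ACT3 it was 0.12, and without ACT1 it was 0.39.

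Doc3 read 8.91, 8.84 and 9.15 in ACT1 to ACT3, against 8.92, 9.02 and 8.86 in DN1 to DN3. ACT3 held the highest and ACT2 the lowest value. The log2 difference was 0.03 (SE 0.14, 95% interval -0.28 to 0.35; limma adjusted p = 1), and it was -0.057 without ACT3. Among all probe sets, the differences of Doc1 and Doc2 stood at percentiles 95.5 and 94.4, and that of Doc3 at 54.8. Towards the other end, those of pnr and tsh stood at percentiles 7.1 and 7.9. Whether the probe sets of these related genes bind each other's transcripts was not tested.

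**Figure D2:**
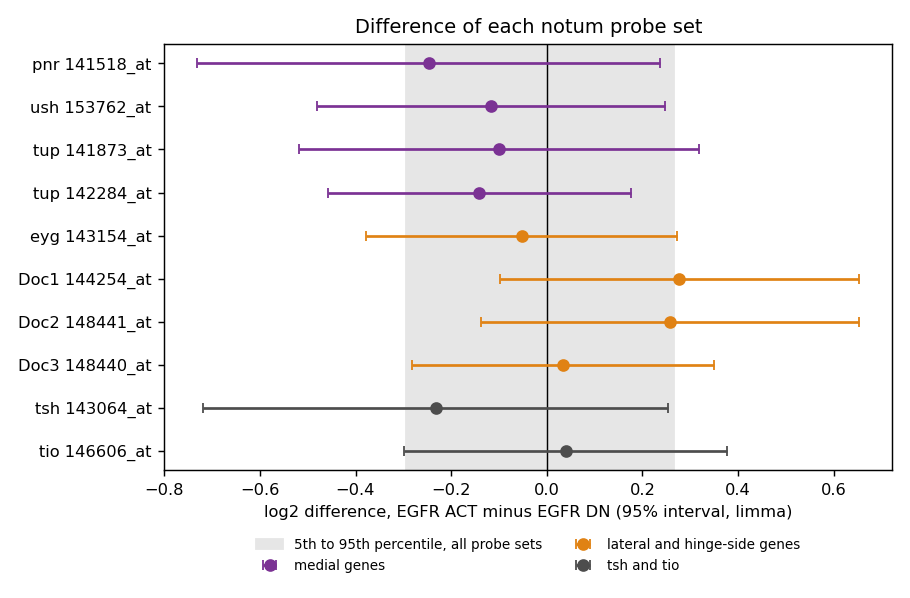
Log2 difference of each notum probe set, EGFR ACT minus EGFR DN, with the 95% interval of the limma fit (n = 3 arrays per group), coloured by place in the disc. All 10 intervals include 0, and the grey band shows where the central 90% of all 13966 probe sets lie, from -0.30 to 0.27.

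The teashirt pair had differences of opposite sign, each close to or below its SE. The gene tsh read 9.20, 9.80 and 9.88 in ACT1 to ACT3, against 9.56, 10.10 and 9.93 in DN1 to DN3. The array numbered 1 was the lowest of each group, and ACT1 lay below all the others. Its log2 difference was -0.23 (SE 0.22, 95% interval -0.72 to 0.25; limma adjusted p = 1). Without ACT1 it was -0.02, and without DN1 it was -0.39, so its size rests on the arrays numbered 1. The gene tio read 8.37, 8.72 and 8.57 in ACT1 to ACT3, against 8.63, 8.56 and 8.35 in DN1 to DN3. Its values spanned 0.37 over all arrays, against 0.89 for tsh. The log2 difference was 0.04 (SE 0.15, 95% interval -0.30 to 0.38; limma adjusted p = 1), and it was -0.044 without ACT2 and -0.041 without DN3.

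Medial genes were then set against lateral and hinge-side genes. All 3 medial genes had negative differences, with a median of -0.12, and the 4 lateral and hinge-side genes had a median of 0.15 with 3 positive and 1 negative. Over all 10844 genes the median was 0.01, with 53.2% positive and 46.8% negative. In each of the 12 pairs of 1 medial and 1 lateral gene, the medial gene had the lower difference. These are descriptions of few genes on the same 6 arrays, and no test was made of them.

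Array by array, the mean of the medial genes was 7.53, 7.77 and 7.93 in ACT1 to ACT3, against 7.66, 7.94 and 8.11 in DN1 to DN3. The mean of the lateral and hinge-side genes was 9.17, 9.38 and 9.38 in ACT1 to ACT3, against 9.10, 9.21 and 9.23 in DN1 to DN3. Both means overlapped between the groups, and both were lowest on the array numbered 1 of each group.

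The medial mean minus the lateral mean removes an offset that a whole array shares. It was -1.63, -1.61 and -1.45 in ACT1 to ACT3, against -1.45, -1.28 and -1.12 in DN1 to DN3. Since probe sets differ in how strongly they bind, nothing is read from its sign, and only its difference between groups is described. That difference was -0.28, with group means of -1.56 ± 0.10 in EGFR ACT and -1.28 ± 0.16 in EGFR DN discs (SD, n = 3 each). The groups did not overlap, but ACT3, at -1.451, lay next to DN1, at -1.447. Groups without overlap were also seen for 6.35% of single genes. Without the dim gene pnr, a choice made after its values were seen, the difference was -0.24 and the groups overlapped. Without eyg, chosen likewise, it was -0.34 and the groups did not overlap.

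**Figure D3:**
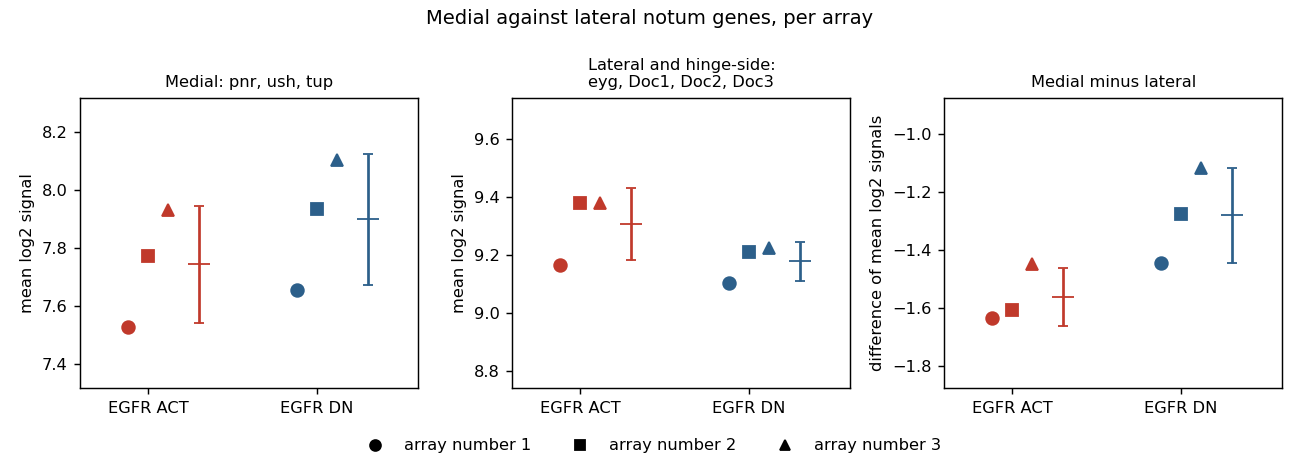
Mean log2 signal per array of the medial genes (left) and the lateral and hinge-side genes (middle), and the medial minus the lateral mean (right), for EGFR ACT in red and EGFR DN in blue, with mean ± SD (n = 3 arrays). The first and second overlap between groups; in the third, EGFR ACT arrays sit at or below -1.45 and EGFR DN arrays at or above -1.45, with ACT3 and DN1 almost level.

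The notum genes also varied within the groups. The SD within groups was 0.33 for tsh and 0.32 for pnr, above those of 85.8% and 85.4% of all probe sets, against 0.13 for Doc3 and 0.14 for eyg, at percentiles 20.2 and 25.9. In 5 of 9 genes (pnr, ush, tup, Doc1 and tsh), ACT1 was the lowest EGFR ACT array and DN1 the lowest EGFR DN array. That is 55.6% of the measured notum genes, against 12.9% of all 10844 genes. The labels do not say what the array numbers stand for, and what these arrays share was not tested. For all 10 probe sets, the range of values within at least 1 group was wider than the difference between the group means. This largely restates that the groups of all 10 overlapped, and its share over all probe sets was not counted.

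Genes that act with the notum genes were examined by lists. Of 17 named partners and upstream regulators, 12 were measured; 5 had positive and 7 negative differences, the median was -0.11, and none was called over all genes (0% called in all). The Iroquois gene caup, a homeobox gene of the lateral notum, read 8.13, 8.55 and 8.31 in ACT1 to ACT3, against 7.71, 7.91 and 7.94 in DN1 to DN3. It was the 1 gene of 12 in this list whose groups did not overlap, beside 6.35% of all genes, with a log2 difference of 0.48 (SE 0.15; limma adjusted p = 1). The other Iroquois genes, ara and mirr, had 0.21 (SE 0.20) and 0.28 (SE 0.59). Both had overlapping groups and neither was called. The homeobox gene B-H1, of the prescutum, had -0.40 (SE 0.20; limma adjusted p = 1). Its signal was dim, at 6.06 in ACT1, below the highest yeast control of 6.14 on that array. The gene emc, which encodes an inhibitor of proneural proteins, had -0.47 (SE 0.31; limma adjusted p = 1).

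Of 11 proneural and bristle genes, the kind of gene that Pannier and the Iroquois proteins act on, 8 were measured. Positive differences were found for 5 and negative ones for 3, with a median of 0.03, and none was called or had groups without overlap. The proneural gene ac had a log2 difference of 0.19 (SE 0.17), its partner gene da had -0.14 (SE 0.15), and the neural precursor gene ase, which lay near background, had 0.11 (SE 0.13), all with a limma adjusted p of 1. The differences of this list thus lay within 0.19 of 0 on either side.

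All 10 hinge genes were measured. Differences were positive for 2 and negative for 8, beside 46.8% negative over all genes, with a median of -0.06, and none was called. Among the negative ones, drm, dve, Sox15, zfh2 and lin lay close to 0, from -0.01 for drm to -0.10 for lin. The POU domain gene nub, of pouch and hinge, had 0.55 (SE 0.20) and was the 1 hinge gene of 10 with groups without overlap, beside 6.35% of all genes. The mean of all nub probe sets gave 0.34. The segmentation gene odd had -0.31 (SE 0.15), and Stat92E, the transcription factor of JAK/STAT signalling, had -0.40 (SE 0.31), all with a limma adjusted p of 1. For Stat92E, the mean of all its probe sets gave -0.25.

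Adepithelial myoblasts, the muscle precursors that lie beneath the notum epithelium, are present in whole discs. All 5 measured of 8 myoblast markers had lower means in EGFR ACT discs, with a median log2 difference of -0.25 and 0 called. Their mean log2 signal ran from 8.01 to 8.15 over EGFR ACT arrays, against 8.31 to 8.45 over EGFR DN arrays, without overlap. Taken singly, 2 of the 5 markers, Him and twi, were without overlap, beside 6.35% of all genes. The markers htl, ct and zfh1 overlapped between groups, with -0.13 for ct and -0.15 for zfh1. The marker twi, a bHLH gene that defines these cells, read 9.50, 9.64 and 9.45 in ACT1 to ACT3, against 9.64, 9.84 and 9.86 in DN1 to DN3. Its log2 difference was -0.25 (SE 0.13; limma adjusted p = 1). Him, a myoblast gene that opposes differentiation, had -0.56 (SE 0.18; limma adjusted p = 1), and htl, an FGF receptor gene, had -0.33 (SE 0.21; limma adjusted p = 1). The htl signal lay near background, at 5.87 in ACT1, below the mean yeast control of 5.96 on that array. The part of the myoblasts in the differences of the notum genes was not tested.

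Markers of the trachea, fat body and salivary gland also had lower means in EGFR ACT discs. The median log2 difference was -0.53 over 4 tracheal markers, -0.71 over 3 fat body markers and -0.74 over 7 salivary gland markers. Every measured marker was lower and 0 were called. Among the tracheal markers, Gasp had -0.92, verm -0.66 and serp -0.41, while btl was nearly level at -0.05 (SE 0.13). Of the salivary gland markers, Sgs3, Sgs4, Sgs5, Sgs7 and Sgs8 ran from -1.21 to -0.61. Sgs1 and fkh were nearly level, at -0.03 (SE 0.18) and -0.02 (SE 0.19). The 6 hemocyte markers had 3 positive and 3 negative differences with a median of 0.02, and the prophenoloxidase gene PPO2 among them had 0.39 (SE 0.16; limma adjusted p = 1) without overlap. The 5 measured markers of peripodial membrane and other discs had a median of 0.00089, with 3 positive and 2 negative differences. Ubx, also in this list, was not measured. The negative ones were Antp, at -0.32, and the gene so, at -0.20, the latter without overlap, beside 6.35% of all genes. Averaged over each list, the tracheal and fat body markers overlapped between groups: the tracheal mean signal ran from 9.31 to 9.91 in EGFR ACT and from 9.85 to 10.34 in EGFR DN arrays, and the fat body mean from 9.10 to 10.39 in EGFR ACT and from 10.25 to 11.04 in EGFR DN arrays. The salivary gland mean ran from 8.41 to 9.30 in EGFR ACT and from 8.66 to 9.83 in EGFR DN arrays. Their part in the notum gene differences was not tested.

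**Figure D4:**
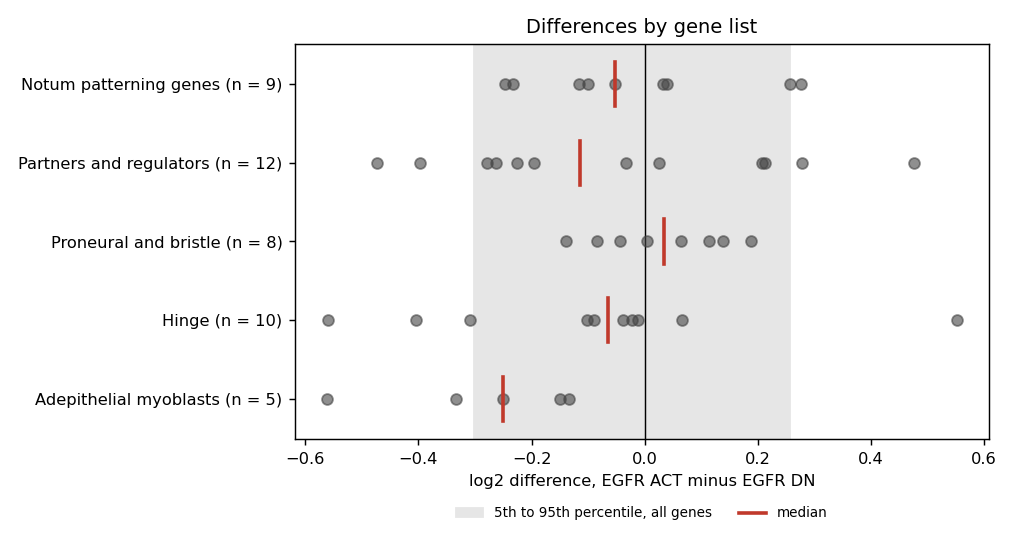
Log2 difference, EGFR ACT minus EGFR DN, of each measured gene by list, with the list's median as a red bar and the central 90% of all 10844 genes in grey. The 9 notum genes lie between -0.25 and 0.28. Below 0 lie 8 of 10 hinge genes and all 5 myoblast markers, beside 46.8% of all genes.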

How the data were processed

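Wing disc RNA of 3 EGFR ACT and 3 EGFR DN samples was measured on 1-colour arrays. The authors summarised probes with GCRMA, as the submitters' processing notes name it, and deposited log2 values by probe set; no version or setting is given in the sources. The values ran from 4.72 to 15.08, with array medians from 8.01 to 8.06. Scanner files were not used here, and the number of arrays limits the precision. From 14010 probe sets, 44 controls were left out. A platform table gave 1 symbol to 12443 of the others, several to 327 and none to 1196. RefSeq held 12394 of the single-symbol ones and changed 0 symbols. The probe set of highest mean stood for its gene.

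The comparison used limma 3.58.1 (lmFit, eBayes, two-sided; R 4.3.3), with Benjamini-Hochberg adjustment over all probe sets, or over all genes for the lists. The exact permutation test of 3 against 3 arrays cannot go below p = 0.1 and was not used. The fit was tested on simulated data. Figures used matplotlib 3.10.9 and Python 3.11.15. Named genes were all member probe sets, up to 3 genes of smallest p in a list, and nub and ap as wing disc markers. Further list genes were named where the reading of a list turned on them. The members, lists and rules were chosen with earlier results of these data known. Alternatives were leaving out each array, a replicate block, array weights, quantile normalization, median centring, a filter at a mean of 6, a trended robust prior, limma's treat, other thresholds, and averaging a gene's probe sets. Medial and lateral means without pnr or eyg were added after seeing the data.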

Additional observations from a re-analysis of the deposited data

How the results depend on the processing

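No notum probe set was called under any alternative run. The differences of pnr, ush, tsh, Doc1 and Doc2 kept their sign under all of them, and so did the dim tup probe set, which the filter at a mean of 6 leaves out. Leaving out 1 array moved pnr between -0.46 and -0.10, ush between -0.25 and -0.011, tsh between -0.39 and -0.020, Doc1 between 0.17 and 0.41, and Doc2 between 0.12 and 0.39. The sign turned without 1 array for the brighter tup probe set (range -0.22 to 0.037), eyg (-0.15 to 0.046), Doc3 (-0.057 to 0.097) and tio (-0.044 to 0.13). With array weights, Doc3 was -0.0080, tio -0.037, pnr -0.41, ush -0.24, tsh -0.51, Doc1 0.11 and Doc2 0.12, the brighter tup probe set -0.26 and the dim one -0.24. The medial median was then -0.27 and the lateral median 0.051. An unadjusted p under 0.05 was reached by pnr with array weights and without ACT3, by tsh with array weights, and by Doc1 with the replicate block and without ACT1. The cause was not tested. The medial minus lateral difference ran from -0.37 to -0.20 with 1 array left out, the medial median from -0.25 to -0.047 and the lateral median from 0.085 to 0.23. The 12 genes named for the smallest p in the lists of partners, proneural genes, hinge genes and myoblasts kept their sign and stayed uncalled. Without 1 array, emc ran from -0.79 to -0.17, Stat92E from -0.71 to -0.16 and htl from -0.51 to -0.13. B-H1 ran from -0.58 to -0.23 and odd from -0.42 to -0.20. The ranges were 0.065 to 0.29 for ac, -0.21 to -0.040 for da and 0.031 to 0.17 for ase.

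Over all probe sets 0 were called; array weights gave 1, and so did an adjusted p under 0.1. At an unadjusted p under 0.05 there were 308. Over all genes 0 were called. Array weights, quantile normalization, a trended robust prior, averaging the probe sets of a gene and an adjusted p under 0.1 each gave 1. An unadjusted p under 0.05 gave 258, and leaving out 1 array gave 0 to 3, the most without ACT3.

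Deviations from group means correlated at 0.61, -0.08 and 0.60 for same-numbered arrays 1, 2 and 3. They sum to 0 per group, so -0.08 does not exclude pairs. With the replicate block, 0 probe sets and 0 genes were called. Unadjusted limma p was then 0.085 for pnr, 0.10 for tsh, 0.0498 for Doc1 and 0.080 for Doc2. The main fit gave 0.28, 0.31, 0.13 and 0.18 for them. The smallest adjusted limma p of these with the block was 0.90. Signals near the yeast controls limit what can be read for pnr and the dim tup probe set, and for htl, B-H1 and ase from the lists.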
